A study of Mus musculus with 2 samples.

Results

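The regions described are CpG-rich promoters of protein-coding genes that carried no DNase-seq peak in the neonatal mouse adrenal gland. They were chosen by sequence and by the peak calls. Around the 5′ end of each GENCODE M21 coding gene on chromosomes 1 to 19, the 1000 bp of mm10 sequence had to reach an observed to expected CpG ratio (O/E) of at least 0.6 and a G+C content of at least 55%. No peak of either library could overlap the 1 kb to either side of that 5′ end. Of 20807 coding genes, 8249 had a CpG-rich 5′ end, and 248 of these, 3.01%, were closed by this rule. The 248 windows form 243 separate stretches, since a few neighbouring genes start close together. A peak was present in both libraries at 7724 CpG-rich 5′ ends, in replicate 1 only at 58 and in replicate 2 only at 219. Because peak calls selected the members, the absence of peaks is a description, and no difference between closed and open promoters was tested.

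Both libraries came from adrenal glands of female B6CASTF1/J mice aged 4 days, and there was no second group. These mice are hybrids of the C57BL/6J and CAST/EiJ strains, and positions refer to the C57BL/6J reference. The labels name biological replicates 1 and 2, mention 3 females for each sample, and give both samples the same donor identifier. Neither the pooling of animals nor the number of reads per library is stated. Replicate 2 had the longer peak list, 87387 peaks against 46031 in replicate 1, and fewer CpG-rich 5′ ends lacked a peak in it: 306 against 467 in replicate 1. At their own 5′ ends, 2 of 8 adrenal cortex markers (Nr5a1 and Scarb1) and 4 of 9 medulla markers (Chga, Chgb, Phox2a and Hand2) had a peak in both libraries. None of 4 leukocyte markers did, while 2 of 6 endothelial, 2 of 4 capsule, 2 of 3 Schwann and 2 of 5 kidney markers did.

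DNase I cuts DNA that nucleosomes leave exposed, and a local excess of cuts is called as a peak. CpG islands are stretches in which CpG dinucleotides have escaped the loss that methylation causes over evolution. They cover the start sites of most broadly used genes, and at those genes they usually lie open in every tissue. As background, the islands of many developmental regulator genes are bound by Polycomb complexes in cells that do not use the gene, and those of some germline genes carry DNA methylation in the body. Neither Polycomb binding nor methylation was measured here. In bulk tissue, a promoter closed in every cell and a promoter open in a small share of cells cannot be told apart.

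The sequences below show how CpG-rich a closed promoter can be. Each is the reference sequence of the 200 bases before the 5′ end, 5′ to 3′ on the gene's strand, from GRCm38.p6 (mm10), with CpG dinucleotides in capitals. From the homeobox, germline, ion channel and receptor lists, the closed gene with the longest CpG-rich stretch is shown among those with no annotated exon in these bases. Longer stretches that were passed over for this reason belonged to Pax2 and Lhx1 (homeobox), Ddx4 (germline) and Grid1 (receptor). An open ribosomal protein gene follows for comparison. Uncx lies at chr5:139543294-139543493 on the plus strand, Slc25a31 at chr3:40708655-40708854 (plus), Hcn2 at chr10:79716434-79716633 (plus), Gabbr2 at chr4:46991874-46992073 (minus) and the open Rplp0 at chr5:115559267-115559466 (plus).
Uncx: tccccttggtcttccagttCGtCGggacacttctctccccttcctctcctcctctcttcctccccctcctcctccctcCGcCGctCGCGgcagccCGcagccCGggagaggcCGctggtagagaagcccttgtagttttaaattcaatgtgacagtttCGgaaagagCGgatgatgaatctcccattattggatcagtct
Slc25a31: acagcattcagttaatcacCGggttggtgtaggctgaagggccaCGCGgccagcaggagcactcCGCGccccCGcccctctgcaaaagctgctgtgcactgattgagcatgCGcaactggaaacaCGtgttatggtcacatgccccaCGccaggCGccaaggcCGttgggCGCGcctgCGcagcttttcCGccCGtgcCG
Hcn2: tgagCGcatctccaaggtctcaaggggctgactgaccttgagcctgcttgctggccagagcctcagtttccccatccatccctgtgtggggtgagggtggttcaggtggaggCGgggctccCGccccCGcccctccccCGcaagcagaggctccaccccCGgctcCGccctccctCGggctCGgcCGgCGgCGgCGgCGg
Gabbr2: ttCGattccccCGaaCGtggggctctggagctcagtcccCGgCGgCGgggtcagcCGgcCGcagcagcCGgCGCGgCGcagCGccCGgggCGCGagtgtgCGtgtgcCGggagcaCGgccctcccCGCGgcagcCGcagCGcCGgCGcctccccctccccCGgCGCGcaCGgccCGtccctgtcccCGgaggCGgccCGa
Rplp0: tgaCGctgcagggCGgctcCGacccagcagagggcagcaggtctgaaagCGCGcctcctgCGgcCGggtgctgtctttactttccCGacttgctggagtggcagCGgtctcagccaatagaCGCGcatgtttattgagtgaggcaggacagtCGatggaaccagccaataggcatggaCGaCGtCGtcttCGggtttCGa
The closed promoters held 11 CpGs (Uncx), 17 (Slc25a31), 14 (Hcn2) and 33 (Gabbr2) in these bases, and the open Rplp0 promoter held 17. Rplp0, which encodes a ribosomal stalk protein, had a peak with a deposited signal of 4.95 (replicate 1) and 11.2 (replicate 2). CpG number in this window therefore overlapped between closed and open examples. Uncx, a homeobox factor of the axial skeleton and neurons, had its nearest peak 6994 bp away in replicate 1 and 6974 bp away in replicate 2. For Slc25a31, the ADP/ATP carrier of germ cells, those distances were 35926 and 35816 bp.

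Developmental transcription factors made up 49 of the 248 closed promoters (19.8%) and 107 of the 7724 promoters open in both libraries (1.39%). Of the 217 CpG-rich 5′ ends in the combined list of developmental transcription factors, 22.6% were closed, against 3.01% of all CpG-rich 5′ ends. A further 56 had a peak in replicate 2 only and 5 in replicate 1 only. The call therefore depended on the library: 24.9% lacked a peak in replicate 2 taken alone and 48.4% in replicate 1 taken alone. In the same readings the share over all CpG-rich 5′ ends was 3.71% and 5.66%. Developmental factors thus had the higher share in either library.

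**Figure D1:**
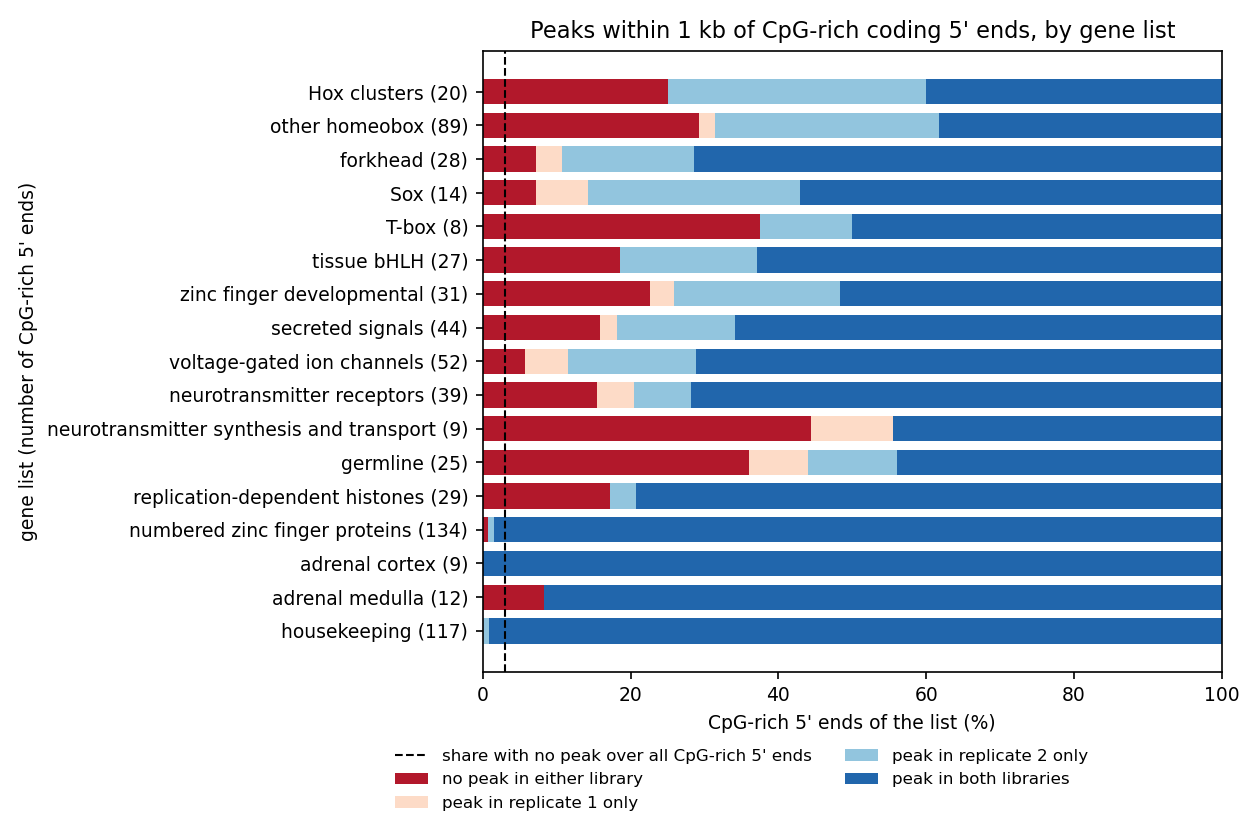
State of CpG-rich 5′ ends in 17 gene lists, as the percentage of the list's CpG-rich 5′ ends (x axis) with no peak, a peak in 1 library or a peak in both; the number in brackets is the list's CpG-rich 5′ ends and the dashed line marks 3.01%. Homeobox, T-box, transmitter transport and germline lists reach 29.2% to 44.4% with no peak, while housekeeping and adrenal cortex lists have none. The adrenal cortex list holds only 9 CpG-rich 5′ ends, too few to set apart from 3.01%.

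Homeobox genes outside the Hox clusters gave 26 of the 49. Of 89 with a CpG-rich 5′ end, 29.2% were closed, 34 were open in both libraries and 27 in replicate 2 only. With replicate 1 alone 59.6% lacked a peak (5.66% of all CpG-rich 5′ ends), and with replicate 2 alone 31.5% (3.71% of all). The closed group spans regulators of many organs. It includes Otx2, Six3, Emx1 and Dbx1 of the brain and neural tube, Dlx2, Dlx3 and Dlx5 of the head and limbs, Cdx2 of the gut, Lhx1 of kidney and gonad formation, and Alx4 of the face. Pitx1, which gives the hindlimb its identity, was the farthest from a peak of any closed gene in the lists when the nearer library is taken. Its 5′ end, at position 55836192 of chromosome 13, lay 108109 bp from the nearest peak in replicate 1 and 87409 bp in replicate 2. For Irx4, a factor of the heart ventricle, the distances were 50219 and 50182 bp. At the other end, Msx3, a factor of the dorsal neural tube, had a peak 1023 bp away in replicate 1, with a deposited signal of 0.691, and none closer than 12309 bp in replicate 2. Pax2, a kidney regulator, showed the reverse, with 29744 bp in replicate 1 and 1067 bp in replicate 2. Msx3 and Pax2 therefore sit next to an accessible region in 1 library only.

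In the Hox clusters, which pattern the body axis, 5 of 20 CpG-rich 5′ ends were closed, 7 had a peak in replicate 2 only and 8 in both libraries. The closed genes were Hoxa6, Hoxa11, Hoxa13, Hoxc12 and Hoxd13. Of these, Hoxa6 lay 2965 bp from a peak in replicate 1 and 2939 bp in replicate 2, and Hoxa11 lay 5206 and 5170 bp from one. Hoxd13, a regulator of digit formation, had its nearest peak at 36371 bp in replicate 1 and 4494 bp in replicate 2, and Hoxc12 at 14615 and 1619 bp. With replicate 1 alone 60% of the Hox 5′ ends lacked a peak, and with replicate 2 alone 25%. Over all CpG-rich 5′ ends these shares were 5.66% and 3.71%.

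T-box factors had 3 of 8 CpG-rich 5′ ends closed. These were T (brachyury) of the notochord and early mesoderm, Tbx1 of the pharyngeal arches and Tbx20 of the heart. Distances agreed between libraries at Tbx1 (27090 bp in each) and nearly so at Tbx20 (78143 and 77970 bp) and T (29158 and 27258 bp). Basic helix-loop-helix factors of particular tissues had 5 of 27 closed, namely Neurog2, which commits progenitors to neurons, Ptf1a of pancreas and cerebellum, Sim2, Hes5 and Bhlhe23. With replicate 1 alone 10 of the 27 (37.0%) lacked a peak. Neurog2 lay 1026 bp from a peak in replicate 1 and 1046 bp in replicate 2, while Ptf1a lay 16478 and 16403 bp from one. Of the developmental zinc finger factors 7 of 31 were closed, which were Zic1, Zic2, Sall3, Gata2, Ovol1, Dmrt1 and Dmrt3, and with replicate 1 alone the count was 14 (45.2%). Foxb1 and Foxl1 of 28 forkhead genes and Sox1 of 14 Sox genes were closed, 7.14% in each list. With replicate 1 alone these counts were 7 (25%) and 5 (35.7%), and with replicate 2 alone 3 and 2, so they rest largely on the peaks of replicate 2. Of all CpG-rich 5′ ends 3.01% were closed, 5.66% with replicate 1 alone and 3.71% with replicate 2 alone. Sox1, a marker of neural progenitors, was far from peaks in both libraries, at 166206 and 63351 bp.

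Secreted signals had 7 of 44 CpG-rich 5′ ends closed, or 15.9%, against 3.01% of all CpG-rich 5′ ends. The ligands were Wnt3a and Wnt10b, Fgf8 of limb and brain patterning, Ihh of growing cartilage, Bmp8b and Gdf10, and the antagonist was Sfrp5, which binds Wnt proteins. Ihh had a peak at 2584 bp in replicate 1 and 1644 bp in replicate 2, and Fgf8 at 3560 and 3526 bp. Bmp8b was the most isolated of them, at 22026 and 22005 bp. The share of signals without a peak was 31.8% in replicate 1 alone and 18.2% in replicate 2 alone. Over all CpG-rich 5′ ends these shares were 5.66% and 3.71%.

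Neuronal genes had 13 of 103 closed, or 12.6%, and the parts of that list differed in their counts. Of genes for transmitter synthesis and transport, 4 of 9 were closed. All of them are transporters: Slc6a4 for serotonin, Slc6a7 for proline, Slc18a3 for loading acetylcholine into vesicles and Slc32a1 for loading GABA. Receptors had 6 of 39 closed, which were Gabbr2, Drd5, Galr1, Grid1, Grin3b and Htr6. Voltage-gated and related channels had 3 of 52 closed (5.77%, against 3.01% of all CpG-rich 5′ ends), among them the pacemaker channel Hcn2 and Kcnk15, a potassium leak channel. In windows where at least 90% of sampled 32-base strings occur once in the genome, 2 of 50 channels were closed (4.0%), against 2.6% of all. Kcnk15, at 88.6%, lay below that limit. With replicate 1 alone, 12 channel genes (23.1%), 9 receptor genes (23.1%) and 4 of the 9 transmitter genes lacked a peak. Several neuronal members lay just outside the 1 kb window of a peak. Slc6a4 was the closest of all 248, at 1003 bp in replicate 1 and 1043 bp in replicate 2. Gabbr2 followed at 1091 and 1108 bp, and Hcn2 at 1467 and 1427 bp. Galr1, a galanin receptor, lay 12144 bp from a peak in each library. Without replicate 2 the neuronal share was 24.3%, and without replicate 1 it was 18.4%. Over all CpG-rich 5′ ends these shares were 5.66% and 3.71%.

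Among lists with at least 20 CpG-rich 5′ ends, germline genes had the highest share, with 9 of 25 CpG-rich 5′ ends closed (36%). Ddx4 is an RNA helicase of germ cells. Mael, Mov10l1, Tdrd1 and Fkbp6 belong to the pathway of piRNAs, small RNAs that silence transposons. Sycp2 is part of the synaptonemal complex, Rnf212 and Mei1 act in meiotic recombination, and Slc25a31 was described above. Of the remaining germline genes, 11 were open in both libraries, 3 in replicate 2 only and 2 in replicate 1 only. Mov10l1 was the farthest from a peak, at 61169 bp in replicate 1 and 61149 bp in replicate 2, and Fkbp6 the nearest, at 3670 and 3673 bp. The germline share changed less with the library than that of the developmental factors, with 48% in replicate 1 alone and 44% in replicate 2 alone. Of all CpG-rich 5′ ends 3.01% were closed, 5.66% with replicate 1 alone and 3.71% with replicate 2 alone. Among 134 CpG-rich genes named Zfp with a number, only Zfp541 was closed (0.746%; with replicate 1 alone 2 genes, 1.49%), and it too is known from spermatocytes, at 8734 and 8834 bp from a peak.

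Housekeeping lists marked the other end. None of 53 ribosomal protein, 45 respiratory chain and 19 proteasome 5′ ends was closed, and 116 of these 117 had a peak in both libraries. None of 9 CpG-rich adrenal cortex genes was closed, but 9 are too few to set apart from the 3.01% of all CpG-rich 5′ ends. None of the 8 cortex markers had a CpG-rich 5′ end, and of these 2 had a peak in both libraries and 4 in neither. In the medulla list, 1 of 12 CpG-rich 5′ ends was closed, that of Gata2, a zinc finger factor of blood progenitors and sympathoadrenal cells. The Gata2 5′ end (position 88193891 of chromosome 6) lay 3917 bp from a peak in replicate 1 and 3931 bp in replicate 2, and each library had a peak within 1 kb of another annotated start site of the gene. Among the marker genes of cell types, 1 of 7 CpG-rich 5′ ends was closed, the kidney marker Pax2. Over all lists together 84 of 699 CpG-rich 5′ ends were closed (12.0%), against 164 of 7550 in no list (2.17%). The lists were chosen with earlier results of these data known, so this contrast partly describes the choice of lists.

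**Figure D2:**
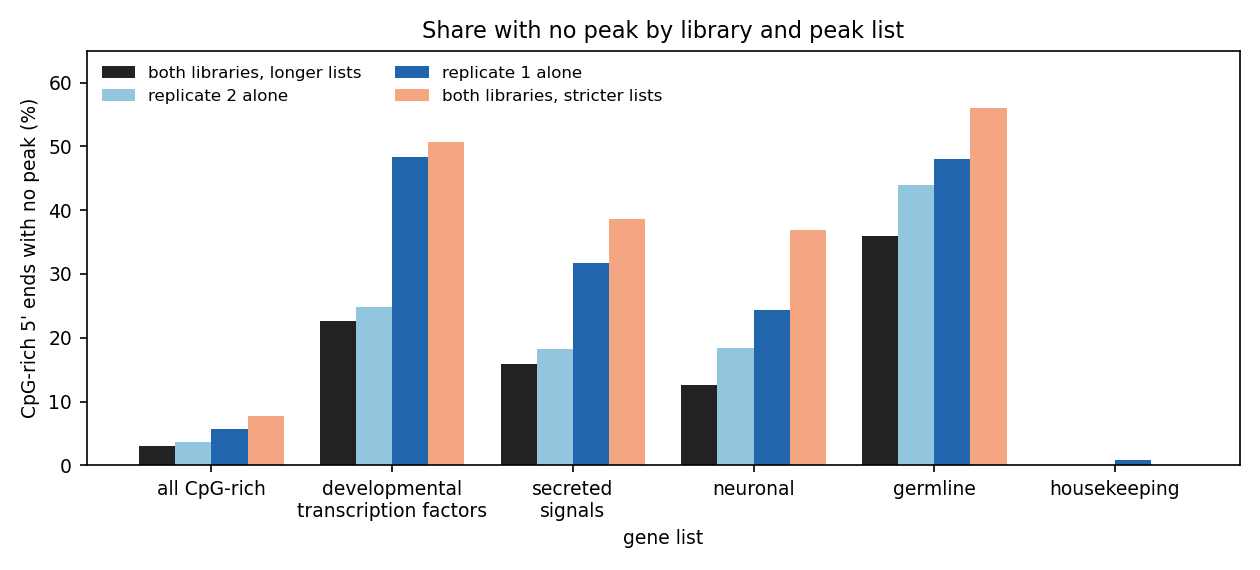
Percentage of CpG-rich 5′ ends with no peak (y axis) for all CpG-rich genes and 5 gene lists, by the libraries and peak lists used (bar colour). The developmental transcription factor bar rises from 22.6% to 48.4% with replicate 1 alone, and in each of the 4 readings that list, the signals, the neuronal genes and the germline genes lie above all CpG-rich genes.

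A closed 5′ end did not always mean a gene without an open start. Of the 165 closed genes with more than 1 annotated start site, 21 had a peak in both libraries within 1 kb of another of these sites, which is 8.47% of all 248. Among them were Lhx1, Lhx2, Pax9, Gata2, Rgma, Lingo1 and Col27a1, picked here from the 21 after their values were seen. With a peak in either library the number was 35 (14.1%), and with replicate 2 taken alone for both criteria the share was 14.7%. The 5′ end used was that of a coding transcript in 238 of the 248 genes (96.0%), and in 88.7% of the genes open in both libraries.

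The closed promoters differed from those open in both libraries in how dense their CpGs were, less in G+C. Median O/E was 0.72 (range 0.601 to 1.01) in the closed group and 0.802 in the group open in both libraries. In the 277 promoters open in 1 library it was 0.734, so the lower density is not particular to closed promoters. Median G+C was 63.0% in the closed group and 62.5% in the group open in both libraries. The share that was closed was lower at each step of O/E, from 6.24% at an O/E of 0.6 to 0.7, through 3.17% and 1.75%, to 1.2% at 0.9 and over. Across bins of G+C it stayed between 2.76% and 3.22%. The CpG-rich stretch joined to the 5′ end, a measure the rule did not use directly, had a median of 890 bp (quartiles 695 and 1205 bp) in closed and 980 bp in open promoters. Stretches of at least 1500 bp were as frequent in closed promoters (34 of 248, 13.7%) as in open ones (13.4%). On each of these measures the ranges of closed and open promoters overlapped.

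The longest stretches mostly belonged to developmental regulators and a few neural genes. Zic2, a regulator of forebrain development, had the longest at 2960 bp, and its nearest peak was 58706 bp away in replicate 1 and 58726 bp in replicate 2. Next came Tmem132e (2880 bp), Slc18a3 (2700 bp), Sall3 (2560 bp), Ihh (2480 bp), Sim2 and Trim71 (2460 bp each), Neurog2 (2360 bp), Foxb1 (2320 bp) and the histone gene Hist2h3c1 (2300 bp). Of the 34 closed promoters with a stretch of at least 1500 bp, 18 were developmental transcription factors (52.9%). Their share among open promoters with such stretches was not counted, so 52.9% is not read as a trait of closed promoters. Closed factors of that list had a median stretch of 1220 bp, near the 1320 bp over all CpG-rich members of the list. Over all CpG-rich 5′ ends the median was 980 bp. Closed genes in no list had a median of 840 bp. The highest O/E was that of Sall3 at 1.01, followed by BC107364 (in a window with 0% unique sequence), Ovol1, Cabp7 and Bhlhe23, at 0.942 to 1.000. At the low limits sat Plac9a and Plac9b (O/E 0.60148 each) and Gm13276 (0.60176), with Gm13290 and Oxct2a (0.59952 each) just outside. For G+C, Rnf220 (55.1%), Zic1 (55.2%) and Hoxc12 (55.3%) were just inside, and Zfp433 (54.6%), Rpl10l (54.7%) and Helt (54.8%) just outside.

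**Figure D3:**
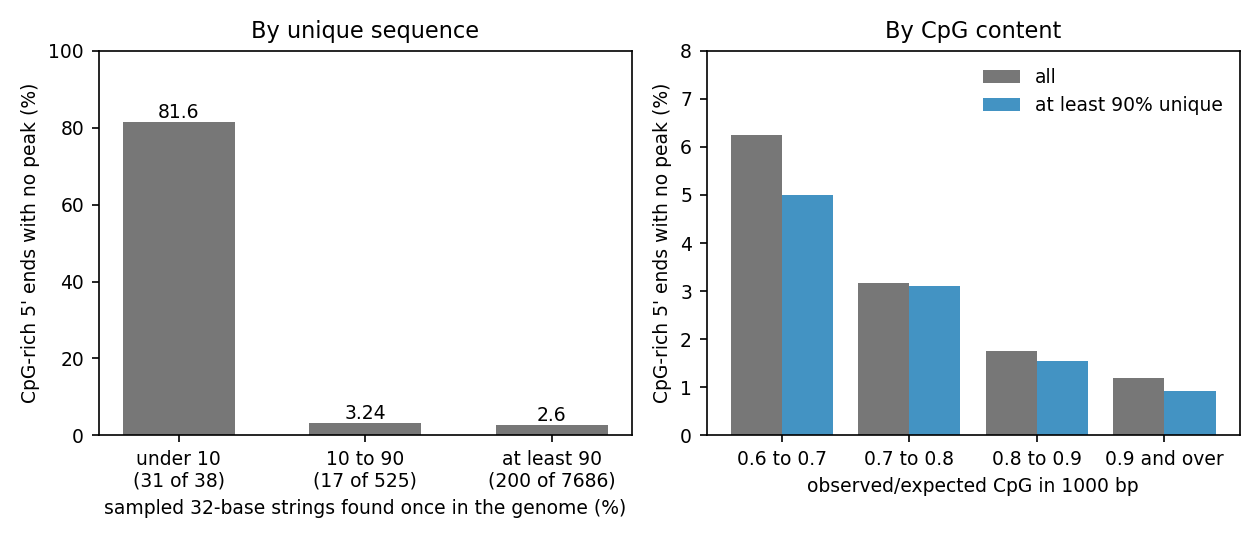
Left: percentage of CpG-rich 5′ ends with no peak (y axis) by the percentage of 32-base strings in the window that occur once in the genome. Right: the same percentage by observed to expected CpG, for all 5′ ends and for those at least 90% unique; the share goes from 6.24% to 1.2% over all and from 4.99% to 0.915% in unique sequence.

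Compared with genes open in both libraries, genes with closed promoters also had fewer annotated start sites. Their median number of annotated start sites was 2, against 5 in open genes, and 83 (33.5%) had a single site, against 10.6%. Their median span was 15253 bp, against 28998.5 bp. A coding gene starting on the opposite strand within 1 kb was found at 7 closed promoters (2.82%) and at 1049 open ones (13.6%). Seen the other way, 0.663% of CpG-rich promoters with such a divergent neighbour were closed, compared with 3.01% of all. In windows at least 90% unique, a divergent neighbour was found at 3 of 200 closed promoters (1.5%) and at 13.7% of open ones. The median number of start sites in those windows was 3 against 5, and 30.5% against 10.3% had a single site. Over all windows, the 277 promoters open in 1 library lay near the closed ones, so these traits are not particular to closed promoters. Genes of that group had a median of 3 start sites and a median span of 17261 bp. A single site was found in 30.0% of them and a divergent neighbour in 0%.

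Short consensus strings were searched on both strands in the 300 bp before the 5′ end. The ETS string CCGGAAG was present in 4.84% of closed and 15.2% of open promoters, and in 8.75% of all 20807 coding promoters. The SP string GGGCGG was present in 61.7% of closed, 72.0% of open and 41.0% of all. The TATA string TATAAA was present in 7.66%, 5.17% and 13.8%. For the NFY string CCAAT the shares were 36.3%, 38.0% and 39.4%, and for the E-box CACGTG 9.68%, 10.7% and 7.31%. The NRF1 string GCATGCGC gave 4.03%, 5.26% and 2.92%, the CRE string TGACGTCA 2.02%, 3.28% and 2.0%, and the E2F string TTTCCCGC 3.23%, 2.21% and 1.21%. The YY1 string AAGATGGCG was found in 1 closed promoter (0.403%), against 1.39% of open and 0.793% of all. Part of the REST element, TTCAGCACC, was also found in 1 (0.403%), against 0.311% and 0.389%. In the 277 promoters open in 1 library, the ETS share was 4.69%, near that of closed promoters. The SP share there was 70.8%, near that of promoters open in both libraries. All the strings but NFY, TATA and REST contain a CpG, and median O/E was lower in closed promoters (0.72 against 0.802). The part of CpG density in these shares was not tested. None of these strings contains another of them, and a match is only a match of letters.

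Distance to the nearest peak spread widely. Its median was 11464 bp in replicate 1 (1003 to 566869 bp) and 7501.5 bp in replicate 2 (1007 to 520007 bp). Taking the nearer library for each gene, the median was 7237 bp, and it was 12065 bp for the promoters closed in replicate 1 when replicate 2 is left out. By that measure 42 promoters (16.9%) had a peak within 2 kb, 101 (40.7%) within 5 kb, and 99 (39.9%) had none within 10 kb. The nearest peak lay upstream of the gene for 56.0% of members in replicate 1 and 56.9% in replicate 2, and inside the gene for 19.4% and 23.0%. At 135 of 248 members (54.4%) the nearest peaks of the libraries overlapped each other. Just inside the 1 kb limit of the rule were Slc6a4 (1003 bp), Rfx4 (1007 bp) and Msx3 (1023 bp), and just outside were Nrn1 (959 bp), Gfi1 (967 bp) and Tlx2 (991 bp).

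**Figure D4:**
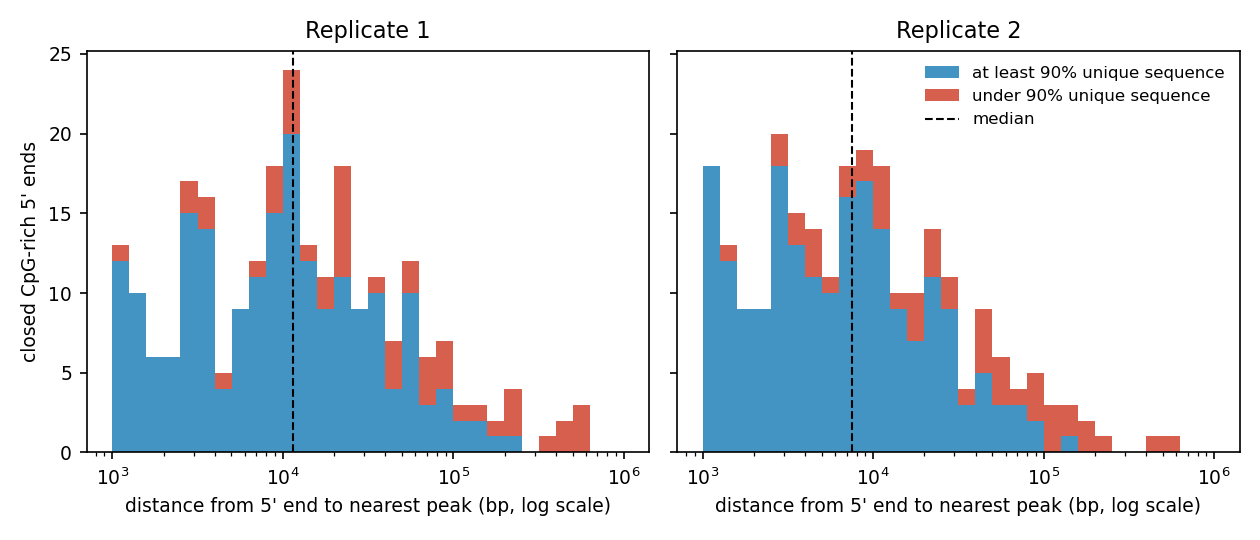
Number of closed CpG-rich 5′ ends (y axis) by distance to the nearest peak (log x axis) in replicate 1 and replicate 2, split by unique sequence; the dashed lines are the medians, 11464 and 7501.5 bp. The longest distances are mostly those of windows with under 90% unique sequence.

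Some members lay close to an open region. In both libraries 27 were that close, and 2 were so in replicate 1 only and 13 in replicate 2 only. Besides Slc6a4, Gabbr2, Hcn2 and Neurog2, the 27 included Dlx2 and Dlx3. Dlx2, a factor of forebrain and jaw, lay 1187 bp from a peak in each library, and the deposited signal there was 1.35 (replicate 1) and 2.84 (replicate 2). The peaks were on the upstream side for 16 of the 29 members within 2 kb in replicate 1 and 23 of 40 in replicate 2. The median signal of these nearest peaks was 1.25 in replicate 1 and 2.25 in replicate 2. For the strongest peak within 1 kb of promoters open in both libraries, the medians were 2.46 and 5.01. A nearest peak and a strongest peak are unlike measures, so the gap is not read as weaker peaks.

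Cut rate entries, positions at which the deposited false discovery rate of the local cut rate was below 0.05, were rare at closed promoters. Within 1 kb of the 5′ end, 16 closed promoters (6.45%) had such an entry in replicate 1 and 27 (10.9%) in replicate 2. Over all CpG-rich 5′ ends the shares were 95% and 96.7%. These entries come from the same reads as the peaks that chose the members, so nothing is read from the contrast. In either library 35 closed promoters (14.1%) had an entry, and in both 8 had (3.23%). The covered length was at most 105 bp in replicate 1 and 69 bp in replicate 2, whereas the open promoters had medians of 830 and 910 bp. Entries below 0.01 remained at 4 members (1.61%).

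The 8 members with an entry in both libraries were Vstm2l, Cbln4, Slc6a4, Dlx2, Neurog2, Crabp1, Lypd6b and Fam131c. At Vstm2l the entries covered 105 bp in replicate 1, with a lowest rate of 0.00449, and 46 bp in replicate 2, with a lowest rate of 1.84e-07. At Cbln4, which encodes a secreted synapse organiser of the cerebellin family, they covered 17 bp (0.00438) and 69 bp (4.42e-05). Both genes had their nearest peak just past the window, at 1033 bp for Vstm2l and 1086 bp for Cbln4 in each library. Crabp1, a retinoic acid binding protein, differed in that its peaks were far, at 26165 and 26108 bp, while entries covered 14 bp (0.0422) in replicate 1 and 18 bp (0.0455) in replicate 2. At Gata2 an entry covered 6 bp in replicate 2 only, at 0.0472, and at the heart factor Tbx20 56 bp in replicate 2 only, at 0.0208. Members within 2 kb of a peak had an entry in 12 of 42 cases (28.6%), and members over 10 kb away in 10 of 99 (10.1%). The 2 groups differed in sequence: 41 of the 42 and 64 of the 99 lay in windows at least 90% unique. Of the 35 members with an entry in either library, 34 lay in such windows. The part that sequence played in this contrast was not tested.

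No footprint, a short protected stretch within cut DNA, lay within 1 kb of any of the 248 closed 5′ ends in either library. At promoters open in both libraries, 98.6% in replicate 1 and 99.0% in replicate 2 had at least 1, with a median of 5. Footprints, like the cut rate entries, come from the same reads as the peaks that chose the members. Nothing is therefore read from this contrast either. Among 5′ ends open in a single library, the strongest peak had a median signal of 0.571 where only replicate 1 had a peak (n = 58) and 0.888 where only replicate 2 did (n = 219), below the 2.46 and 5.01 of promoters open in both. Developmental transcription factors made up 61 of these 277 (22.0%), close to their 19.8% among closed promoters.

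Some closed calls lay in sequence where short reads have no single place. A window's unique share is the percentage of 32-base strings, sampled every 25 bp over the 2 kb, that occur once in the reference genome. Of 38 CpG-rich windows under 10% unique, 31 were closed (81.6%), against 17 of 525 at 10 to 90% (3.24%) and 200 of 7686 at 90% or more (2.6%). The treatment of reads with several placements is not stated, and the part this played in the calls was not tested. The 48 closed windows under 90% unique comprised 26 genes with a Gm number for a symbol and 5 histone genes, and 18 of the 48 were on chromosome 14 and 10 on chromosome 4. None was a developmental transcription factor, so all 49 of those lie in windows at least 90% unique. All 9 members over 100 kb from any peak were under 90% unique. Among them were Gm21953, with 520007 bp in each library, and Gm21586, with 510323 and 437663 bp.

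Chromosome 14 had the highest closed share, 25 of 305 CpG-rich 5′ ends (8.2%), while chromosome 16 had 1.82% and chromosome 8 had 1.83%. Runs of successive CpG-rich genes that were all closed held 67 members in 26 runs, and 33 of these members were in 9 runs of at least 3. The longest was on chromosome 14, with Gm3252, Gm3264, Gm8281, Gm3500, Gm3488 and Gm3373 and a median unique share of 5.7%. The next, also there, joined Slc25a37, Entpd4, Gm16867, Entpd4b and Loxl2, with a median unique share of 0%. Slc25a37 imports iron into mitochondria, and Loxl2 crosslinks collagen. The run of 4 on chromosome 13 consisted of the histone genes Hist1h2bq, Hist1h2ao, Hist1h2ap and Hist1h2br, again at 0%. All 5 closed histone genes, out of 29 with CpG-rich 5′ ends, were under 90% unique, and they make up the whole 17.2% closed in that list. Runs of 3 with a median unique share of 100% (lowest 98.7%) were Prtn3, Plppr3 and R3hdm4 on chromosome 10 and Ttll8, Mov10l1 and Panx2 on chromosome 15.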

How the data were processed

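DNase-seq was measured in 2 adrenal gland libraries of 1 group. Per the deposited file notes, the authors called peaks, cut rate lists and footprints per library on mm10; callers, thresholds, read filters and depth: not given in the sources used here. Counting error could therefore not be computed. Each deposited peak carries a signal value of the authors, whose scaling is not stated. The deposited cut rate lists hold false discovery rates (adjusted p-values) below 0.05 only, and every footprint carries the value 0.01, a p-value threshold as far as the values show. The longer of 2 peak lists per library was used, and the stricter one as an alternative.

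Genes came from GENCODE M21 and sequence from GRCm38.p6; positions are 1-based. O/E is the CpG count times length over the product of C and G counts. CpG-rich stretches join windows of 200 bp (step 20 bp) that meet the same limits and reach the 5′ end, searched over 5 kb to either side. Python 3.11.15 with numpy 2.4.6, pandas 2.3.3 and numba 0.67.0 was used, and the helper functions were checked on made-up intervals and sequences. The members and the gene lists were chosen with earlier results of these data known. Named genes are, per list, the 2 closed members farthest from and the 2 nearest to a peak; over all members, the 10 longest stretches, the 5 highest O/E values, those with cut rate entries in both libraries and the longest runs; genes beside each limit; and closed adrenal genes. Other members are named to fill out a list, and a few genes that the rule names are not reported here. With 2 libraries and members chosen by peaks, no test was made.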

Additional observations from a re-analysis of the deposited data

How the results depend on the processing

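No paired analysis was possible because there is 1 group of 2 libraries and no test. Of 54 alternative values, 31 stayed within 1.5 times a count, or within the 95% interval of a share or median, and 23 moved. The interval is taken over promoters, some of which are neighbours or copies, and does not measure the spread between libraries. The cause of the moves was not tested beyond what each setting does by construction.

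With an O/E of at least 0.75 and G+C of at least 60%, 76 promoters were closed (1.87%), 19.7% of them had a cut rate entry, the median distance to a peak was 4572.5 bp and the median stretch 1180 bp. With the stricter peak lists, 641 were closed (7.77%), 66.8% had a cut rate entry, the median distance was 11657 bp, and 50.7% of developmental transcription factors were closed. With a single library the number closed ran from 306 (without replicate 1) to 467 (without replicate 2), or 3.71% to 5.66%. In the same settings the developmental factor share ran from 24.9% to 48.4%, and the median distance from 8083.5 to 12065 bp. The share of closed genes with a peak at another start site was 14.7% without replicate 1 and 11.3% without replicate 2. The closed share was 3.46% with CpG content taken over 500 bp, 3.53% with peaks excluded over 500 bp to either side, and 2.5% over 2 kb. It was 2.58% with no peak at any annotated start site and 2.6% in windows at least 90% unique. As a separate change to the main rule, requiring no cut rate entry within 1 kb also gave 2.58%. Requiring a cut rate below 0.01 left entries at 1.61% of members.

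The lack of read depth limits every closed call: a promoter with few cuts and one that is fully shut look alike in these lists.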
